A study of Mus musculus with 11 samples.

Results

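Glycolysis genes were followed across forelimb buds in which the DNA replication licensing inhibitor Geminin (Gmnn) was removed or kept on 1 allele. The set holds 10 genes, chosen by exact gene name from the 47517 names in the table: the glucose transporter Slc2a1, the hexokinases Hk1 and Hk2, the phosphofructokinase Pfkp, the enzymes Aldoa, Pgk1, Eno1 and Pkm, the lactate dehydrogenase Ldha and the pyruvate dehydrogenase kinase Pdk1. RNA was sequenced from mouse forelimb buds at E10.5 on a C57BL/6 background, after removal of ribosomal RNA. The 6 mutant libraries are labelled Gmnn f/f; Prx-Cre, so both Gmnn alleles carry loxP sites. The 5 control libraries are labelled Gmnn +/f; Prx-Cre, so they carry the Cre transgene and 1 floxed allele as well, and no group lacked either. Prx-Cre acts in limb bud mesenchyme and its Cre does not reach all other cells of a whole bud, such as ectoderm and blood. The libraries came from 4 litters, named A to D here: controls 1 and 2 with mutants 1 and 2 (A), control 3 with mutant 6 (B), control 4 with mutant 5 (C), and control 5 with mutants 3 and 4 (D).

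Glycolysis splits glucose into pyruvate, which cells either pass to mitochondria or reduce to lactate. Glucose enters through facilitative transporters, hexokinases trap it, phosphofructokinase commits it, and the later enzymes harvest ATP. In the early limb bud, glycolytic enzymes are known to be high in the distal mesenchyme that receives Fgf signals from the apical ectodermal ridge. Many of the same genes answer to Hif1 and Myc, whose DNA elements can hold an ACGTG core.

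The libraries held 14777833 to 19733288 reads in controls and 14721181 to 17034741 in mutants. Gmnn, which checks the labels, stood at 179.6 ± 40.18 CPM in controls (SD, n = 5), CPM being a gene's reads scaled to its library's TMM-adjusted total, and 115.3 ± 16.07 in mutants (SD, n = 6), with no overlap (log2 fold change -0.67, SE 0.10, edgeR adjusted p = 0.0291). All 9 limb mesenchyme markers were detected, with a summed level of 808 to 993.9 CPM in controls and 773.9 to 917.2 CPM in mutants. Control 5 and mutant 4, both of litter D, stood apart from the other 9 libraries in the results that follow, and results that rest on them are given with and without them. Each library's title carries a number of its own within its litter, and p-values measure the spread between these libraries. In whole buds, fewer cells of a type and less RNA per cell cannot be told apart.

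Promoters are shown for Ldha, Pgk1 and Aldoa, 3 members that were high in the same 2 libraries and whose promoters hold the ACGTG core. The runs below are the 250 bases before an annotated start in RefSeq (GRCm38.p6), 5′ to 3′ on the gene's own strand. Capitals mark ACGTG or its reverse complement CACGT, including the palindrome CACGTG where both overlap. The Ldha run lies at chr7:46845554-46845803 on the plus strand, the Pgk1 run at chrX:106186850-106187099 on the plus strand, and the Aldoa run at chr7:126799255-126799504 on the minus strand.
Ldha: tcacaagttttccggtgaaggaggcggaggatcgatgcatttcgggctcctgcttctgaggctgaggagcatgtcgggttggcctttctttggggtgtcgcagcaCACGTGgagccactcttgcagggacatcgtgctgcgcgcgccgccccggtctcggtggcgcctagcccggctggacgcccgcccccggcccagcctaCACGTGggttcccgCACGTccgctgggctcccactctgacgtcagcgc
Pgk1: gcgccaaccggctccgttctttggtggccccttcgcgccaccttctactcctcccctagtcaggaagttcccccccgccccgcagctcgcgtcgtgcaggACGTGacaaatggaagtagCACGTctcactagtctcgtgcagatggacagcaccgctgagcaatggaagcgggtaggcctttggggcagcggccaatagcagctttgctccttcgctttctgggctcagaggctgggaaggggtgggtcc
Aldoa: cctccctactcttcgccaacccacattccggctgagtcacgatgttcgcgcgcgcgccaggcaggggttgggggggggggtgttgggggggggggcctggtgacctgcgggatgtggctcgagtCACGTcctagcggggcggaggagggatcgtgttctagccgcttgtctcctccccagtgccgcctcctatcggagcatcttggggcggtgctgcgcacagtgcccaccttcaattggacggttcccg

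The Ldha run held 5 distinct matches counting both strands, of which 2 pairs overlapped in a CACGTG palindrome. The Pgk1 run held 2 and the Aldoa run 1. RefSeq gives the members 18 start windows of 250 bases before to 50 after a start, and 7 of the 10 genes had ACGTG on either strand in at least 1 window, namely Slc2a1, Hk1, Hk2, Aldoa, Pgk1, Pkm and Ldha. Over all genes with a window the share was 21.8%, or 5886 of 27025. By window it was 8 of 18 (44.4%) for the members and 6447 of 32851 (19.6%) for all. The Aldoa windows with a match overlap each other and hold the same site, so the 8 are not all separate. More windows give a gene more room for a match, and the members had 18 for 10 genes, against 32851 for 27025. Pfkp, Eno1 and Pdk1 had no match in these windows, and other forms of the Hif1 and Myc elements were not searched. A match is a description of letters, and binding was not measured.

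Levels between members were compared as CPM per kilobase of exon, averaged over the 11 libraries. Pkm, the last enzyme of glycolysis, was highest at a mean of 1322 CPM per kb, above Ldha, which reduces pyruvate to lactate, at 905.6 and Aldoa, which splits fructose bisphosphate, at 776. Ranges over libraries overlapped between these neighbours, yet the order held in 11 of 11 libraries for both pairs. Each gene's exon length is the same in every library, so this agreement does not test the lengths. A gene annotation later than the one counted gives Pkm 5001 exon bases against 2599 in the counts. For Ldha it gives 3310 against 2982 and for Aldoa 3710 against 3762. The order of these 3 genes depends on the lengths used, and other lengths were not tested. Eno1, which makes phosphoenolpyruvate, followed at 234.6 CPM per kb, and its range did not overlap that of Aldoa.

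A second tier held the transporter Slc2a1 at 39.17, Pgk1, the first enzyme of glycolysis to make ATP, at 28.5, and Hk2, the inducible hexokinase, at 26.36 CPM per kb. Pgk1 was above Hk2 in 9 of 11 libraries, and their ranges overlapped. Pdk1, which phosphorylates and switches off pyruvate dehydrogenase, averaged 2.929 and Hk1, the broadly expressed hexokinase, 2.586 CPM per kb, with Pdk1 above Hk1 in 7 of 11 libraries. Pfkp, the platelet-type phosphofructokinase, was lowest at 0.9805 CPM per kb. Levels rest on reads mapped with a quality of at least 10, and genes with near copies elsewhere may be undercounted: Pgk1, Eno1 and Ldha each had 4 copies at 95% identity or more over at least 300 bases and Pkm 1, and how many of their reads fell under that quality was not tested. The rows of those copies held at most 0.467% as many reads as the member.

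None of the 10 members passed the genotype test by edgeR, at an adjusted p under 0.05 over all 15821 genes tested, where 345 genes passed (2.18%), 1.48% lower and 0.702% higher in mutants. DESeq2 and limma-voom also called 0 of 10. At an unadjusted p under 0.05 edgeR gave 1 of 10, Pfkp, against 21.4% of all genes, DESeq2 gave 1 and limma-voom 2. No member had control and mutant values that did not overlap, against 2.59% of all genes. The members' median log2 fold change, mutant over control, was -0.118 with 9 of 10 below 0, beside a median of 0.00382 over all genes with 49.3% below 0. Every member's 95% interval stayed within 1.5-fold either way, with the lowest end at a 33.2% fall (Pdk1) and the highest end at a 17.7% rise (Pgk1).

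**Figure D1:**
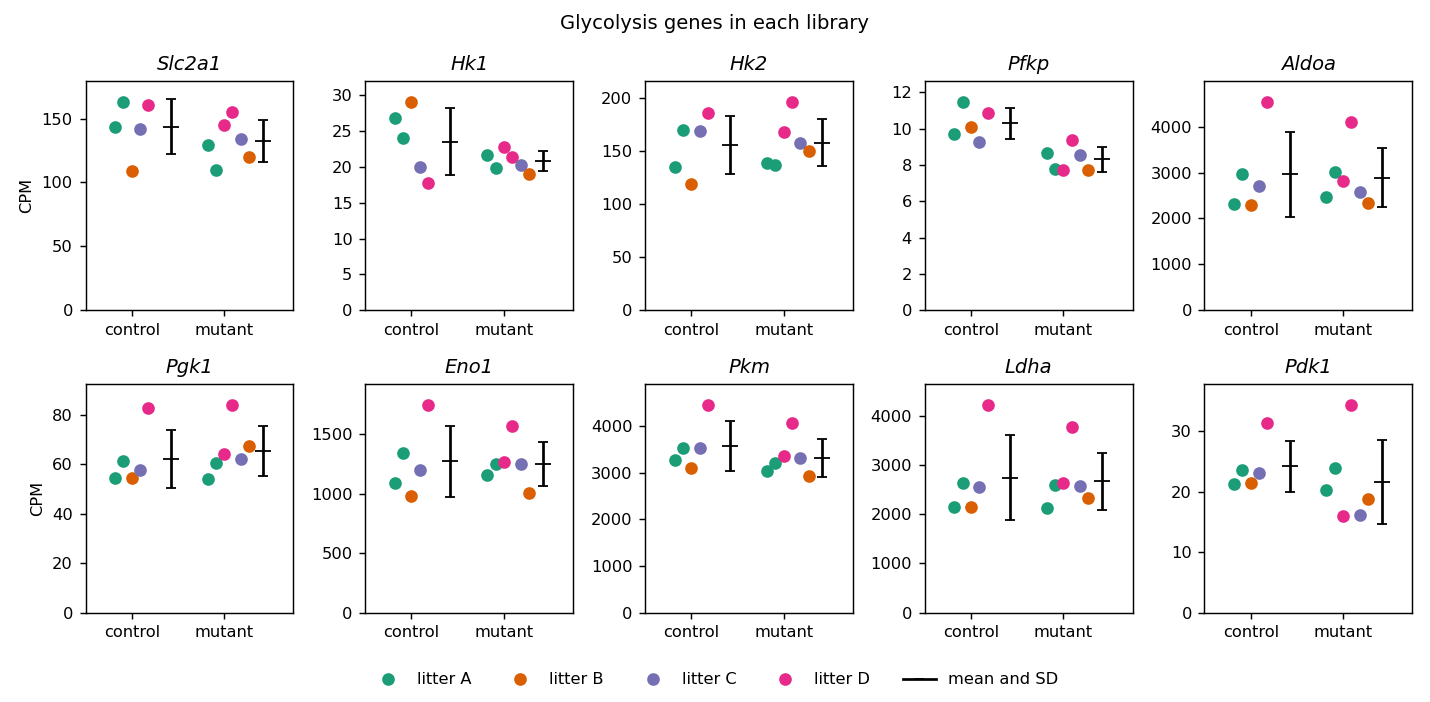
Level of each glycolysis gene in CPM (vertical axes, from 0) in the 5 control and 6 mutant libraries; points are libraries coloured by litter, and the bar beside each group is its mean and SD. Control and mutant points overlap in all 10 panels, and in 7 panels the 2 highest points are both from litter D.

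Slc2a1 (chr4:119108711-119137983, plus strand, mm10) imports glucose. Controls 1 to 5 stood at 143.6, 163.1, 109.2, 141.6 and 160.5 CPM, and mutants ranged from 109.5 to 154.9 CPM with a median of 131.8. The groups overlapped over almost their whole range, and the lowest control, from litter B, lay next to the lowest mutant, from litter A. The log2 fold change was -0.15 (SE 0.09, edgeR adjusted p = 0.336).

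Both hexokinases phosphorylate glucose. Hk1 (chr10:62268855-62379908, minus strand) read 26.79, 24.04, 29.11, 19.98 and 17.73 CPM in controls 1 to 5, and from 19.02 to 22.77 CPM (median 20.82) in mutants. Controls of litters A and B lay above every mutant, while control 5 lay below every mutant. Within litters, the mutants minus the controls gave -0.29 (A), -0.61 (B), 0.02 (C) and 0.31 (D) on the log2 scale. An edgeR test of the genotype by litter interaction gave an unadjusted p of 0.0437 for Hk1 and an adjusted p of 0.950. That test called 0 genes, with 3.82% of all genes at an unadjusted p under 0.05, and rests on 3 residual degrees of freedom. The overall log2 fold change of Hk1 was -0.15 (SE 0.12, edgeR adjusted p = 0.526).

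Hk2 (chr6:82725025-82774454, minus strand) stood at 135.6, 170.6, 119.4, 168.9 and 186.0 CPM in controls 1 to 5 and from 137.3 to 196.8 CPM (median 154.2) in mutants. The highest library of each group came from litter D and the groups overlapped throughout. Its log2 fold change was -0.02 (SE 0.09, edgeR adjusted p = 0.934), and upper-quartile scaling turned it to 0.02.

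Pfkp (chr13:6579768-6648777, minus strand), which phosphorylates fructose 6-phosphate, gave the smallest unadjusted p of the set. Controls 1 to 5 read 9.732, 11.48, 10.09, 9.295 and 10.86 CPM, and mutants 7.725 to 9.394 CPM with a median of 8.173. Only mutant 4, at 9.394 CPM, overlapped the controls, and only with control 4. Mutants were lower in all 4 litters, by log2 differences of -0.36 (A), -0.38 (B), -0.12 (C) and -0.35 (D). The fitted fold was 0.803 with a 95% interval of 0.676 to 0.954 (log2 -0.32, SE 0.11, unadjusted p = 0.0167, edgeR adjusted p = 0.143), so it did not pass. Pfkp rested on 115 to 223 reads per library. In a gene annotation later than the one counted, 5.58% of its 13401 exon bases overlap Pitrm1 on the opposite strand. The counts used 9395 exon bases, and reads of Pitrm1 within them could not be told apart in a count without strand.

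The 4 enzymes from aldolase to pyruvate kinase shared a pattern of 2 high libraries. Aldoa (chr7:126795234-126809108, minus strand) read 2304, 2974, 2292, 2712 and 4541 CPM in controls 1 to 5, and 2329 to 4098 CPM (median 2691) in mutants. Control 5 and mutant 4 were far above the other 9 libraries, which spanned 2292 to 3007 CPM in both groups. The log2 fold change of Aldoa was -0.09 (SE 0.12, edgeR adjusted p = 0.713).

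Pgk1 (chrX:106187100-106203699, plus strand), which transfers a phosphate of bisphosphoglycerate to ADP, read 54.36, 61.37, 54.47, 57.80 and 82.68 CPM in controls 1 to 5, and 54.03 to 84.19 CPM (median 63.13) in mutants. Its log2 fold change of 0.03 was the single positive one of the set (SE 0.09, edgeR adjusted p = 0.883). Eno1 (chr4:150236721-150248879, plus strand) read 1094, 1347, 986.4, 1197 and 1752 CPM in controls 1 to 5 and 1005 to 1570 CPM (median 1252) in mutants. In both genes the groups overlapped and the 2 high libraries were again control 5 and mutant 4. For Eno1 the log2 fold change was -0.07 (SE 0.09, edgeR adjusted p = 0.713).

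Pkm (chr9:59656368-59679375, plus strand) read 3266, 3528, 3094, 3524 and 4463 CPM in controls 1 to 5, and 2926 to 4071 CPM (median 3261) in mutants. The groups overlapped, but within each of the 4 litters the mutants were lower, by -0.12 (A), -0.08 (B), -0.09 (C) and -0.27 (D) on the log2 scale. The fitted log2 fold change was -0.14 (SE 0.07, unadjusted p = 0.0705, edgeR adjusted p = 0.278). In a gene annotation later than the one counted, 15.3% of its exon bases lie in an overlapping gene model on the same strand. That annotation gives Pkm 5001 exon bases, against 2599 in the counts, so the share of the counted bases was not measured.

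Ldha (chr7:46841475-46855627, plus strand) read 2148, 2625, 2149, 2543 and 4224 CPM in controls 1 to 5, and 2130 to 3776 CPM (median 2580) in mutants. Apart from control 5 and mutant 4 the libraries of both groups lay within 2130 to 2630 CPM. Litter differences were -0.02 (A), 0.11 (B), 0.02 (C) and -0.42 (D), and the fitted log2 fold change was -0.09 (SE 0.11, edgeR adjusted p = 0.720).

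Pdk1 (chr2:71873224-71903858, plus strand), which keeps pyruvate out of the mitochondrial acetyl-CoA route, read 21.31, 23.63, 21.48, 23.12 and 31.39 CPM in controls 1 to 5, and 15.92 to 34.42 CPM (median 19.6) in mutants. Mutant 4 was the highest library and mutant 3, of the same litter, the lowest. Mutants were below controls in all 4 litters, by -0.02 (A), -0.19 (B), -0.51 (C) and -0.42 (D), the last an average of those 2 unlike mutants. The fitted log2 fold change was -0.22 (SE 0.17, edgeR adjusted p = 0.492).

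**Figure D2:**
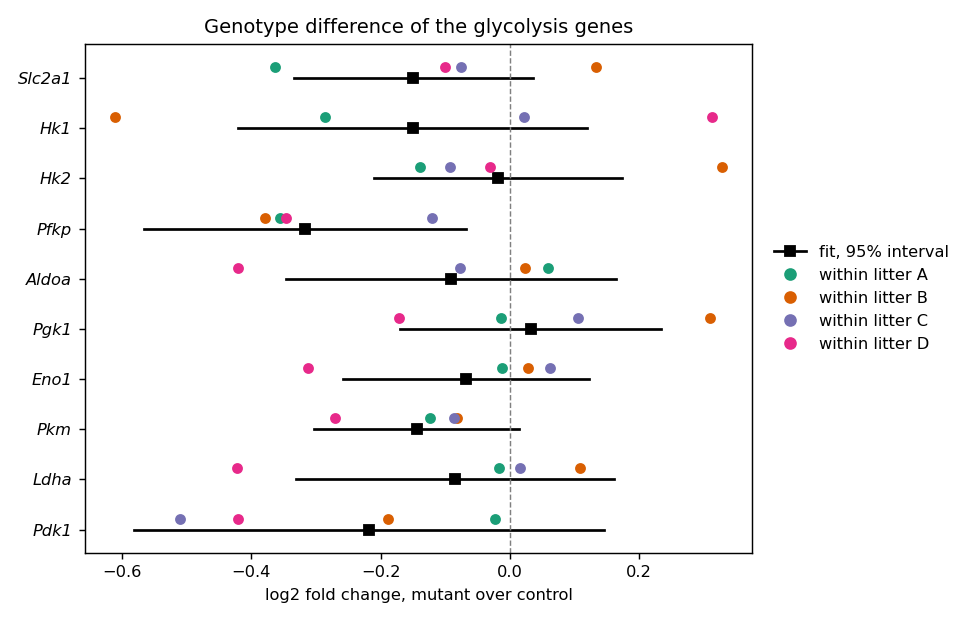
Log2 fold change, mutant over control, of each glycolysis gene: squares and bars are the edgeR estimate with its 95% interval, and coloured points are the differences within each litter. Litter points lie on both sides of 0 for 7 genes and below 0 in all 4 litters for Pfkp, Pkm and Pdk1, and the interval of Pfkp alone, unadjusted for the number of genes, does not reach 0.

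Levels of most members differed between libraries of the same genotype. Control 5 and mutant 4 were the 2 highest of 11 libraries in 7 of 10 members (Hk2, Aldoa, Pgk1, Eno1, Pkm, Ldha and Pdk1), against 4.71% of all genes tested. Reads of the 10 members made up 1.494% of all reads in control 5 and 1.384% in mutant 4, and from 0.9086% to 1.076% in the other 9. Ldha in control 5 was 1.661 times the median of those 9, and in mutant 4 it was 1.485 times. For Aldoa the values were 1.765 and 1.593 times. Mutant 3, the third library of litter D, had Ldha at 1.034 times the same median.

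Slc2a1, Hk1 and Pfkp did not have those 2 libraries as the 2 highest. Slc2a1 was highest in control 2 (163.1 CPM), followed by control 5 (160.5) and mutant 4 (154.9). Pfkp was highest in control 2 (11.48 CPM), followed by control 5 (10.86), and mutant 4 was its highest mutant (9.394). Hk1 was highest in control 3, with control 5 lowest. The highs fell in 1 control and 1 mutant of the same litter. Without both libraries 0 of 10 members passed the genotype test, as with them. The signs of Aldoa, Eno1 and Ldha turned, to log2 fold changes of 0.01, 0.01 and 0.02.

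**Figure D3:**
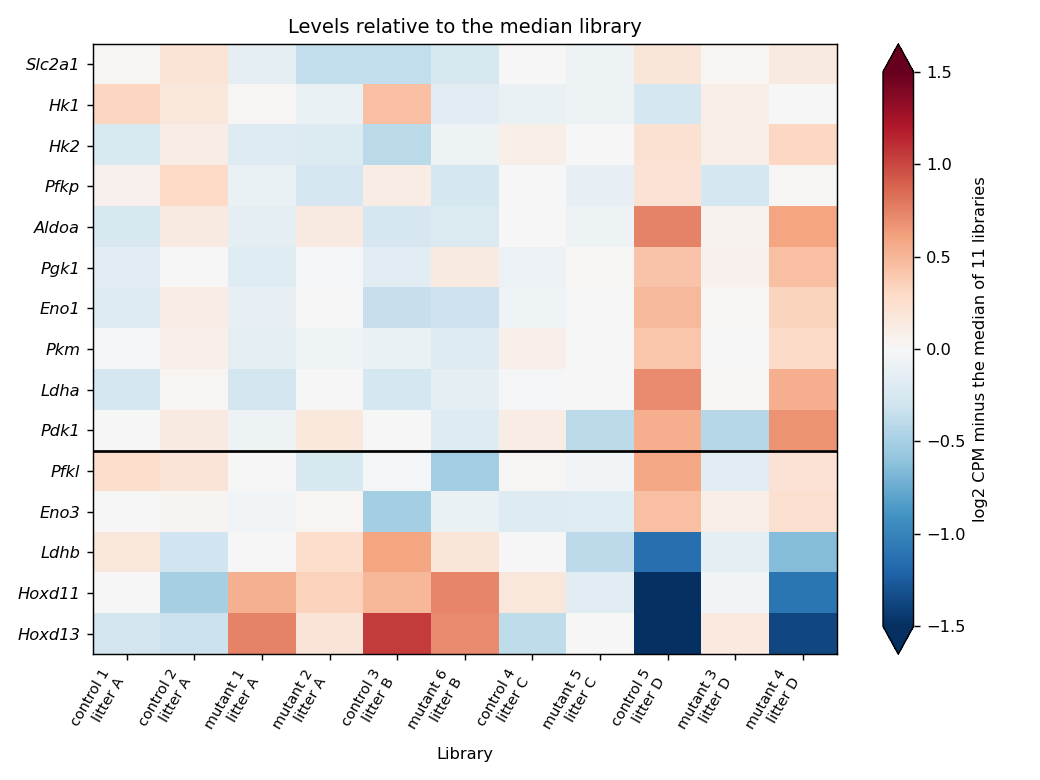
Log2 CPM of each gene (rows) in each library (columns, ordered by litter) minus that gene's median over the 11 libraries; rows above the black line are the 10 glycolysis genes, rows below it are Pfkl, Eno3, Ldhb, Hoxd11 and Hoxd13, and colours stop at 1.5 either way. Control 5 and mutant 4 are red for Aldoa, Pgk1, Eno1, Pkm, Ldha and Pdk1 and blue for Ldhb, Hoxd11 and Hoxd13.

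Since control 5 and mutant 4 form a separate pair in Ldha, covariation was measured over the other 9 libraries, on log2 CPM, against Ldha. Aldoa had Pearson's r = 0.858 (exact permutation p = 0.0081, adjusted p = 0.064) and Spearman's rho = 0.8 (exact p = 0.014, adjusted p = 0.069). Eno1 had r = 0.796 (exact permutation p = 0.013, adjusted p = 0.064) and rho = 0.833 (exact p = 0.0083, adjusted p = 0.069). For Hk2 r was 0.772 (exact permutation p = 0.019, adjusted p = 0.064) and rho 0.633 (exact p = 0.076, adjusted p = 0.15). None of the 10 relations computed, the other 9 members and Ldhb, passed 0.05 after Benjamini-Hochberg adjustment over the 9 libraries. With control 5 and mutant 4 included, 7 of the 10 passed by Pearson's r and 6 by Spearman's rho (permutation tests, 100000 resamples). Aldoa then had r = 0.976 (adjusted p = 0.0001) and rho = 0.891 (adjusted p = 0.0022), so the passing of the adjusted threshold rests on those 2 libraries.

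Pgk1 and Pkm had r of 0.657 and 0.665 with Ldha (exact permutation p = 0.058 for both, adjusted p = 0.12) and rho of 0.7 and 0.65 (exact p = 0.043 and 0.067). Leaving out the libraries farthest from the Ldha median, control 1 and mutant 1, took r to 0.88 for Aldoa, 0.955 for Eno1, 0.78 for Hk2, 0.72 for Pkm and 0.364 for Pgk1 over the 7 left, so the relation with Pgk1 rests on those samples. Slc2a1 had r = 0.355, Hk1 -0.492, Pfkp -0.159 and Pdk1 -0.117, with exact permutation p of 0.33, 0.18, 0.68 and 0.75. For Pdk1 r was 0.714 over all 11 libraries (permutation p = 0.016, adjusted p = 0.022). Pdk1 thus shared the 2 high libraries with Ldha, and no relation between them was detected among the rest. All these points share a library's depth and scaling, and the libraries of a litter are not independent of each other.

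Isozymes give a second view of the same steps. Ldhb, the lactate dehydrogenase subunit that favours lactate to pyruvate, read 359.0, 258.4, 478.7, 318.7 and 145.5 CPM in controls 1 to 5, and 203.0 to 380.9 CPM in mutants. The lowest library of each group was the one highest in Ldha: control 5 and mutant 4. Per kilobase, Ldha made up 93.86% of the Ldha and Ldhb sum in control 5 and 90.74% in mutant 4, and 70.27% to 84.8% in the other 9. By genotype the share had a median of 80.77% in controls and 80.45% in mutants, and for Ldhb the log2 fold change was 0.09 (SE 0.17, edgeR adjusted p = 0.802).

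**Figure D4:**
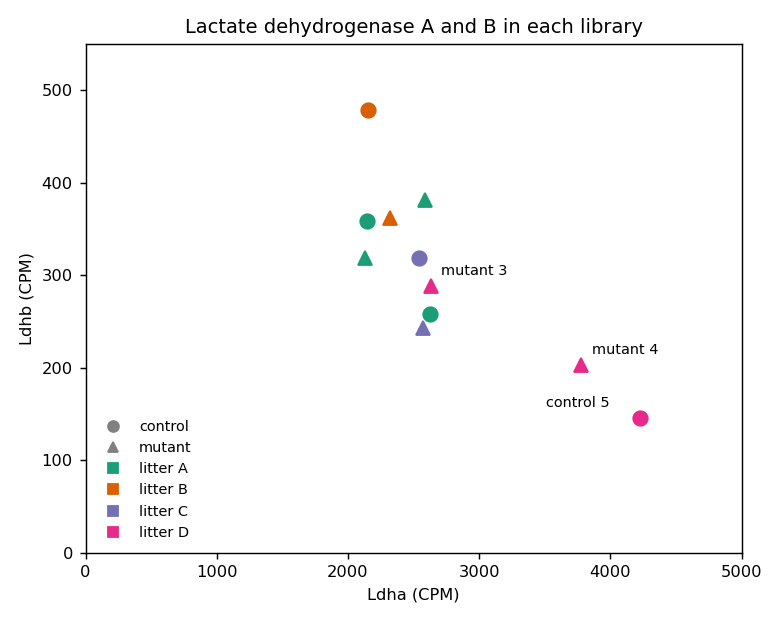
Ldhb against Ldha, both in CPM with axes from 0, in the 11 libraries; circles are controls, triangles are mutants and colours are litters. Control 5 and mutant 4 lie at the lower right, while mutant 3 of the same litter lies among the other libraries.

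At several other steps the member held the larger share. Aldoa made up 99.74% to 99.91% of the Aldoa and Aldoc sum per kilobase, Hk2 85.43% to 93.75% of the hexokinase sum with Hk1, and Eno1 59.99% to 66.49% of the sum with Eno2 and Eno3, the neuronal and muscle enolases. The enolase share depends on the exon lengths counted, 5379 bases for Eno1 and 1739 for Eno3. In CPM, without length, Eno1 averaged 1275 in controls and 1251 in mutants, and Eno3 229.9 and 233.8. Pfkp and Pdk1 were minor isozymes: Pfkp stood at 0.8965% to 1.167% of the sum with Pfkl and Pfkm, the liver and muscle types. Pdk1 made up 21.82% of the 4 pyruvate dehydrogenase kinases in control 5 and 21.42% in mutant 4, and 11.4% to 19.12% in the other 9. Slc2a1 made up 65.27% to 86.99% of its sum with Slc2a3, a higher-affinity glucose transporter.

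Among 16 tested of 19 listed other glycolysis genes, 1 fell in mutants and none rose (median log2 fold change -0.05). Over all genes tested, 1.48% fell and 0.702% rose, which is the background for this list and those that follow. The one that fell was Slc2a3, at 71.2, 61.42, 120, 128.7 and 84.86 CPM in controls 1 to 5 and 44.74 to 66.93 CPM in mutants, with an overlap only of control 2 and mutant 6 (log2 fold change -0.68, SE 0.14, edgeR adjusted p = 0.0406). Pfkl, the phosphofructokinase highest here per kilobase (79.96 CPM per kb), just missed the threshold with an edgeR adjusted p of 0.0546 (log2 fold change -0.37, SE 0.09) and is named after its value was seen. It passed with DESeq2 (adjusted p = 0.00497), with limma-voom (0.0484), with a filter of 1 CPM (0.0467) and with no filter (8.88e-05). In the other 21 of 25 alternative settings Pfkl did not pass. The edgeR adjusted p was 0.169 without the litter block and at most 0.453 over the settings. Hk3 and Pgk2 were among those too low to test. Control 5 and mutant 4 were also the 2 highest libraries in 6 of these 16 genes, against 4.71% of all genes tested: Gpi1, Tpi1, Gapdh, Pgam1, Eno1b and Eno3. Eno1b rested on 41 to 79 reads per library. Near copies were searched for the members only, so miscounting through copies was not tested for these genes.

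Of 16 lactate and pyruvate genes, 2 fell and none rose (median log2 fold change -0.08), beside 1.48% and 0.702% of all genes. Pdha1, the catalytic subunit of pyruvate dehydrogenase that Pdk1 phosphorylates, stood at 150.5 to 176.7 CPM in controls and 113 to 156.3 CPM in mutants (log2 fold change -0.31, SE 0.06, edgeR adjusted p = 0.0406). Its gene overlaps Map3k15 on the opposite strand over 16.1% of its exon bases in the later annotation. Pdp2, the phosphatase that reverses Pdk1's action, stood at 116.9 to 208.2 CPM in controls and 71.32 to 150.4 CPM in mutants (log2 fold change -0.63, SE 0.13, edgeR adjusted p = 0.0406). Slc16a3, which exports lactate, read 81.7 CPM in control 5 and 70.28 CPM in mutant 4, and 22.35 to 50.63 CPM in the other 9. Bsg, the chaperone of lactate transporters, read 607.9 and 523.3 CPM, with 327.8 to 521.4 CPM in the others.

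None of the 5 genes that set fructose 2,6-bisphosphate passed the edgeR test, nor did any reach an unadjusted p under 0.05 (median log2 fold change -0.07). Pfkfb3, which makes this activator of phosphofructokinase, had a log2 fold change of -0.20 (SE 0.13, unadjusted p = 0.148). In the pentose phosphate branch 1 of 7 tested genes rose, Pgls, the phosphogluconolactonase (log2 fold change 0.36, SE 0.08, edgeR adjusted p = 0.0462), from 21.03 to 26.85 CPM in controls to 27.4 to 35.33 CPM in mutants. It shares 20.6% of its exon bases with Fam129c on the same strand in the later annotation.

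Hypoxia-response genes outside glycolysis gave 0 of 15 calls by edgeR, with 3 at an unadjusted p under 0.05, near the 21.4% of all genes, and a median log2 fold change of -0.05. Bnip3, a mitophagy receptor induced by Hif1, had a log2 fold change of -0.33 (unadjusted p = 0.0137). It read 71.61 CPM in control 5 and 64.09 CPM in mutant 4, against 38.19 to 53.91 CPM in the other 9. Vegfa, the endothelial growth factor, read 8.408 and 10.46 CPM in those 2 libraries and 6.052 to 9.509 CPM in the others.

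Of 9 transcription factors of glycolytic genes, none passed by edgeR and 2 had an unadjusted p under 0.05, beside 21.4% of all genes (median log2 fold change 0.12). Those 2 went opposite ways. Mlxip had a log2 fold change of 0.26 (SE 0.08, edgeR unadjusted p = 0.00819, adjusted p = 0.1035). Arnt had -0.39 (SE 0.14, edgeR unadjusted p = 0.0173, adjusted p = 0.147). Hif1a read 53.25 CPM in control 5 and 64.99 CPM in mutant 4, within or below the 60.39 to 73.87 CPM of the other 9. Myc read 110.4 and 91.38 CPM there, above the 44 to 82.88 CPM of the others. Among 14 genes of the distal Fgf signal, 1 fell, Spry2, an Fgf feedback inhibitor, from 64.47 to 276.8 CPM in controls to 35.26 to 127.2 CPM in mutants (log2 fold change -1.39, SE 0.26, edgeR adjusted p = 0.0390).

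The calls of Slc2a3, Pdha1, Pdp2, Pgls and Spry2 lay near the threshold. Leaving out 1 of the 11 libraries lost them in 10, 9, 9, 10 and 9 of the 11 fits, and a fit without the litter block lost all 5, with adjusted p from 0.0591 to 0.0879. The log2 fold changes kept their direction in the fits without 1 library, at -0.79 to -0.53 for Slc2a3, -0.34 to -0.29 for Pdha1, -0.73 to -0.50 for Pdp2, 0.34 to 0.39 for Pgls and -1.67 to -1.19 for Spry2. With no litter block Slc2a3 was at -0.75 and Spry2 at -1.53. Without control 5 and mutant 4, Spry2 alone of the 5 passed (adjusted p = 0.0432). A further fit took as a covariate each library's mean log2 level of 957 genes outside the members that hold a run of at least 18 T bases. This mean was 4.707 to 4.815 in controls 1 to 4 and 4.253 to 4.625 in the other 7 libraries. With it, none of the 5 passed. The log2 fold changes were then -0.98 for Slc2a3, -0.18 for Pdha1, -0.09 for Pdp2, 0.32 for Pgls and -0.32 for Spry2. The longest T run was 28 bases in Pdp2 and 38 in Spry2, but 9 in Slc2a3, 10 in Pdha1 and 4 in Pgls. Pdp2 and Spry2 are thus among the 957 genes, and each was adjusted in part for its own level. Of the members, Ldha had 19 and Hk2 18. The covariate separated controls 1 to 4 from every mutant, so its part and that of genotype cannot be fully told apart.

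The genes whose levels across the 11 libraries were most like the mean of the members, among 8447 genes with a mean of at least 10 CPM, included Vamp3 (Pearson's r = 0.945), Gyg (0.942), Enox1 (0.915) and Morf4l2 (0.915). Without control 5 and mutant 4 those values were 0.850, 0.869, 0.750 and 0.769 over 9 libraries. Hoxd13, a distal limb Hox gene, was lowest in control 5 and mutant 4, at 3.153 and 6.659 CPM against 13.25 to 35.98 CPM in the other 9. Hoxd11 gave 3.363 and 8.978 CPM against 13.75 to 32.27 CPM. Hoxb5, a gene of another Hox cluster, was highest in the same libraries, at 45.48 and 34.07 CPM against 12.54 to 21.04 CPM. The labels give the same age for all libraries, the level of dissection is not given in the sources used here, and the part of either in the glycolysis levels was not tested.

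Markers of other cells were read beside the high glycolysis libraries. Summed red cell markers, all 13 tested, were 22920 CPM in control 5 and 21270 CPM in mutant 4, inside the 13150 to 57450 CPM of the others. The 8 endothelial markers summed to 198.9 and 218.7 CPM, inside 130.6 to 250.5 CPM, and the 8 surface ectoderm markers to 241.7 and 228.5 CPM, inside 169.2 to 315.1 CPM. The 9 macrophage markers were lowest in control 5, at 2.873 CPM. Mutant 4, at 10.52 CPM, lay inside the 8.803 to 45.34 CPM of the others. The 6 muscle precursor markers summed to 66.99 and 48.75 CPM against 50.37 to 90.31 CPM, and the 8 contractile muscle genes, of which 3 fell in mutants, to 134.5 and 80.21 CPM against 10.25 to 227.1 CPM. Of 6 neural crest markers 4 were tested, and the list summed to 19.13 and 6.124 CPM against 6.696 to 18.74 CPM. No listed marker was at 0 over all libraries, and the part of these cells in the glycolysis levels was not tested.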

How the data were processed

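The authors deposited raw read counts per gene name for 11 libraries. Per the file headers, counting used featureCounts 1.4.6-p4 with GENCODE M9, a mapping quality minimum of 10 and no strand option, and the command lists 12 alignment files, of which 11 have a column. Per the submitters' processing notes, reads were aligned with STAR 2.5.4b to mm10. The deposited table also gives each gene's merged exon length, used for CPM per kb. The litter of each library comes from its label.

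Counts were fitted in edgeR 4.0.16 (R 4.3.3): filterByExpr (15821 genes, 99.9% of reads), TMM scaling, litter as a block, quasi-likelihood F test with 6 residual degrees of freedom, two-sided p-values adjusted by Benjamini-Hochberg across every tested gene, and a call at 0.05. Intervals are 95% from the same fit. The litter block follows the study's litter matching. As a check, deviations from the group means correlated at -0.16 to 0.37 (median 0.13) in 8 same-litter pairs and at -0.33 to 0.17 (median -0.02) in 22 pairs from different litters. No libraries of a genotype were alike within counting noise (of 25 pairs, the least different had a chi-square of 7.04 per degree of freedom). The fit was tested on simulated data with known changes of at least 2-fold and no litter effect. That simulation does not show how often changes as small as those of the members would be found.

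The members, lists and tests were chosen with earlier results of these data known. Genes named are the members, Gmnn, list genes past the threshold (otherwise the smallest p), and those of the 5 genes most like the members' mean that are reported here; others were named after their values were seen. Correlations used NumPy 2.4.6 and SciPy 1.17.1 with exact permutation of 9 libraries, two-sided. Near copies (found with BLAST 2.17.0), overlaps and T runs used a GENCODE release later than M9, of the same build. Its gene models can differ from those counted. RefSeq promoter windows matched 10 of 10 members. Alternatives were other scalings, filters, DESeq2 1.42.0, limma-voom (limma 3.58.1), no litter block, each library or litter left out, and a covariate for T runs. Leaving out control 5 and mutant 4 together was chosen after seeing the data.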

Additional observations from a re-analysis of the deposited data

Results flagged for a closer look

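Of 26 groups examined (13 measures in each genotype), 6 held a library far from the others of its genotype, and chance flags about 1 in 20 groups. On the log2 CPM scale, Pgk1 was highest in control 5 at 6.372, with the next control at 5.942. Pdk1 was highest in control 5 at 4.978, with the next at 4.57. Ldha was highest in mutant 4 at 11.88, with the next mutant at 11.36. Reads of the members as a share of all reads reached 1.494% in control 5 (next control 1.076%) and 1.384% in mutant 4 (next mutant 1.046%). The mean of the members' standardised levels was 1.217 in mutant 4 and -0.1359 in the next mutant.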

How the results depend on the processing

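In every alternative run, 0 of the 10 members passed, and the smallest adjusted p over the members was 0.1295 to 0.3949. The T-run covariate brought the count with an unadjusted p under 0.05 to 4. Over all genes the count of 345 moved to 1566 with no filter, 550 with a filter of 1 CPM, 1194 with DESeq2, 13 with no replicate block, 9, 3, 1 and 148 without litter A, B, C and D, 2 with the T-run covariate, and 127 without control 5 and mutant 4. Leaving out 1 library gave 1 to 850. Upper-quartile scaling called 155 higher and 205 lower, against 111 and 234. The interaction count moved from 0 to 438 with no filter, which lets in genes near 0 reads. The Gmnn call was lost in 8 of 11 fits without 1 library, with no replicate block (adjusted p = 0.0549), without litter B (0.129), C (0.0556) or D (0.0516), and without control 5 and mutant 4 (0.0527), at log2 fold changes of -0.75 to -0.57 in the fits without 1 library.

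Signs turned as follows (log2 fold change). With no replicate block Hk2 became 0.0209 and Ldhb -0.0608, and upper-quartile scaling gave Hk2 0.0190. Without litter A Hk2 became 0.0595 and Pfkfb1 0.000483. Without litter B Pgk1 became -0.0288 and Pfkfb1 0.0148. Without litter C Hk2 became 0.00162. Without litter D Aldoa became 0.0148, Eno1 0.0141, Ldha 0.0243 and Ldhb -0.108. Without control 5 and mutant 4 these were 0.0126, 0.0120, 0.0221 and -0.111. The T-run covariate gave Slc2a1 0.0103, Hk1 0.176, Pgk1 -0.101, Pfkfb3 0.144, Pfkfb1 0.0923, Egln1 -0.0548 and Arnt 0.148. Leaving out 1 library gave Hk2 -0.0959 to 0.0504, Aldoa -0.159 to 0.0144, Pgk1 -0.0288 to 0.0982, Eno1 -0.114 to 0.0138, Ldha -0.141 to 0.0239, Pfkfb1 -0.191 to 0.0150 and Ldhb -0.109 to 0.217. The cause was not tested. The block changed no call of a member. Pfkp rested on the fewest reads (115 to 223 per library).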

Other observations

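Pentose phosphate genes other than Pgls did not pass the genotype test. Tkt, a transketolase, stood at 736 to 925.7 CPM and Pgd, the phosphogluconate dehydrogenase, at 218.1 to 270.9 CPM in 9 libraries. Both enzymes were highest in control 5 (976.4 and 306.7 CPM) and mutant 4 (955.1 and 277.7 CPM). Dld, the shared dihydrolipoamide dehydrogenase, had a log2 fold change of -0.20 (SE 0.07) and did not pass.

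Dusp6, a phosphatase that answers to Fgf, read 269.8 CPM in control 5 and 289.2 CPM in mutant 4, inside the 208.8 to 374.5 CPM of the other 9 libraries. Fgf8, the ridge ligand, read 10.16 and 11.53 CPM there, inside 5.031 to 17.18 CPM. Of the 14 distal Fgf genes, 0 had control 5 and mutant 4 as the 2 highest libraries, against 4.71% of all genes. The part of Fgf signals in the glycolysis levels was not tested.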
